A study of Mus musculus with 8 samples.

Results

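Slc4a1, Sptb, Ank1, Epb42, Rhag, Rhd, Kel and Ermap are genes of the red-cell membrane and its skeleton. They were taken by name from the deposited gene table, as 8 of its 52784 genes, and all 8 had counts in at least 4 of the 8 libraries. Membership rests on the gene's name, with no threshold on its values.

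The red cell is held in shape by a net of spectrin under its membrane. Slc4a1 encodes band 3, the anion exchanger of the red cell, and Ank1 encodes the ankyrin that ties band 3 to the beta-spectrin made from Sptb, with Epb42 (protein 4.2) stabilising that contact. Rhag and Rhd encode members of the Rh complex, which also joins the skeleton, while Kel encodes the Kell blood group protein and Ermap the erythroid membrane protein of the Scianna blood group. Most of these genes are switched on while erythroblasts mature in the liver, spleen and bone marrow, and mature red cells keep the proteins after the nucleus is lost.

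RNA was sequenced from cells sorted from F1 hybrid pups aged 1 week, whose dams were C57BL/6 (CD11c-DTR) and whose sires were BALB/c. In every group the dam thus carried the diphtheria toxin receptor (DTR), which the CD11c promoter drives, so that diphtheria toxin (DT) removes CD11c+ dendritic cells (DC) from the dam for a time. There were 4 treatments: uninjected pups, which had no intrauterine transplantation (IUT) and came from dams given DT or not; DC control mIUT, with saline to the dam on embryonic day 13 and 5000000 bone marrow mononuclear cells of B6 donors (the maternal strain) into each fetus on embryonic day 14; DC control pIUT, with saline and the same number of BALB/c cells (the paternal strain); and DC-depleted pIUT, with DT at 5 ng/g and BALB/c cells. From each treatment, trafficked maternal cells were sorted by H2K-b and recipient cells by H2K-d, magnetically and then by flow cytometry. F1 cells inherit both haplotypes, B6 donor cells carry H2K-b and BALB/c donor cells carry H2K-d. The cells of several pups were pooled, giving 1 library for each origin and treatment and 8 libraries in all. With no replicates the spread between animals cannot be measured, so that each comparison is between libraries and no p value is given.

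Total counts ran from 38543457 to 47965130 per library. Levels are CPM, counts scaled to a common depth by each library's total and its TMM factor, and intervals are at the 95% level and cover counting error only. Detectable means more than 3 counts. Called higher or lower means at least 2-fold, counted over the genes above 3 counts in 1 of the libraries compared or in both. If counts of unchanged libraries varied with the dispersion of 0.4 that the methods assume, 95% of their ratios would lie within 4.99-fold in a log-normal approximation, which serves as a yardstick, and within 7.15-fold under a negative binomial, a range added after the data were seen. Several libraries lack genes that the others hold. Of the genes at 10 CPM or more in each of the other 7 libraries, 9.51% were below 1 CPM in the recipient uninjected library and 4.86% in the maternal DC control mIUT library, against 1.26% or less in the other 6. Zeros in these libraries are therefore read with care below. The labelled cell type is mononuclear cells. T-cell markers summed to between 107 and 3362 CPM over the libraries and B-cell markers to between 30.3 and 6621 CPM, while markers of granulocytes reached 122451 CPM in the recipient DC control mIUT library and 74025 CPM in the maternal one, the highest values of that list.

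On GRCm39, Slc4a1 lies on chromosome 11 (102239650 to 102257029, minus strand), Sptb on chromosome 12 (76627247 to 76757321, minus) and Ank1 on chromosome 8 (23464860 to 23640513, plus). Epb42 lies on chromosome 2 (120848372 to 120867553, minus) and Rhag on chromosome 17 (41122017 to 41151645, plus). Rhd and Ermap share chromosome 4, at 134591845 to 134623487 (plus) and 119032654 to 119047208 (minus), and Kel lies on chromosome 6 (41663264 to 41681273, minus). Counts are taken over the exons, from 10 in Rhag and Rhd to 43 in Ank1. Exons of Rhd overlap those of Tmem50a on the opposite strand, and the strand setting of the counting was not given in the sources used here, so that some reads of either gene could be counted to the other. Tmem50a had 22325 counts in the recipient DC control mIUT library, where Rhd had 21. Exons of Kel overlap those of Llcfc1, which had 0 counts in every library, those of Ank1 overlap Gm15816, which had at most 1, and those of Sptb overlap Plekhg3 on the opposite strand, which had from 0 to 825 counts per library, with 574 in recipient DC control mIUT, where Sptb had 0. Exons of Ermap overlap those of Gm70209 on the opposite strand by 410 bases, and those of Ank1 also overlap Gm64529 by 147. Neither Gm70209 nor Gm64529 was among the genes counted, so their reads cannot be checked. Ermap had 13 counts in the recipient DC control mIUT library.

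The bases around the transcript start were read for the 8 genes because their levels were correlated across the libraries, some pairs more than others. Pearson's r lay between 0.566 and 0.975 over 28 pairs. The sequence was not used to choose the genes. The genome was GRCm39 with GENCODE vM39 starts of canonical transcripts. The letters AGATAA and TGATAA, the core read by GATA factors, and CCNCNCCC, a core read by erythroid Kruppel-like factor, were searched on both strands, from 250 bases before to 50 after the start. AGATAA was found in 4 of the 8 windows (10.6% of 21770 windows of protein-coding genes) and TGATAA in 3 (8.52% of them), so that 6 held one of these cores or both (17.5%), while CCNCNCCC was found in 3 (54.6%). A GATA core together with CCNCNCCC was held by 2 of the 8 and by 6.19% of the windows. The GATA core lay within 70 bases before to 3 after the start in the same 6 genes, against 3.61% of all genes; this narrower stretch was chosen after the matches were seen. The 73 bases of each of the 6 genes are shown because they hold these letters, in capitals with those of CCNCNCCC, 5′ to 3′ along the gene. Letters on the opposite strand read as TTATCT or TTATCA.
Slc4a1 (chr11:102256104-102256176, minus strand): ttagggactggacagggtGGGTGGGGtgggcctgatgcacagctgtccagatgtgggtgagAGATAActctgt
Epb42 (chr2:120867551-120867623, minus strand): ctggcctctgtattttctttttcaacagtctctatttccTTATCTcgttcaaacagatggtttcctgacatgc
Rhag (chr17:41121947-41122019, plus strand): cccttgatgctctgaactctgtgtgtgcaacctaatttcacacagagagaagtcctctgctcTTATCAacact
Rhd (chr4:134591775-134591847, plus strand): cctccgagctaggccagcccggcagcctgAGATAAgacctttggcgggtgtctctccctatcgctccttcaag
Kel (chr6:41681271-41681343, minus strand): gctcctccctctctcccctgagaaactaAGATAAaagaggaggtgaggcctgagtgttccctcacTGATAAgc
Ermap (chr4:119047206-119047278, minus strand): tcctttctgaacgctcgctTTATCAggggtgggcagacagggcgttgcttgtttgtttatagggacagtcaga
The same stretch is shown for the other 2 genes, the skeleton genes Sptb and Ank1, to set beside them. It holds none of these letters, though Sptb has CCNCNCCC farther upstream in its window.
Sptb (chr12:76757319-76757391, minus strand): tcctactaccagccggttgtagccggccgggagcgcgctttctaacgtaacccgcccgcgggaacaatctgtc
Ank1 (chr8:23525045-23525117, plus strand): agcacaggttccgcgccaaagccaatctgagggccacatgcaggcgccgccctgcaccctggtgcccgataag
A match describes the letters, and no match says only that they are not in the window. No measurement of binding was made here.

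Of the 8 genes, 7 were detectable in the maternal and all 8 in the recipient library of uninjected pups, with Ank1 at 1 count in the former. The genes were close to absent from the recipient cells of both DC control IUT groups, and, in sum, highest in maternal cells of the pIUT groups. Summed over the 8 genes, maternal libraries held 662 CPM (uninjected), 101 (DC control mIUT), 2039 (DC control pIUT) and 2547 (DC-depleted pIUT). The recipient libraries held, in the same order, 1123, 1.19, 6.2 and 164 CPM. Rhd made up 64.2% of the counts of the 8 genes in maternal DC-depleted pIUT cells. There Slc4a1, Sptb, Epb42 and Kel stood below their recipient uninjected levels, and the other genes above them. In pooled sorted cells, fewer red-cell precursors and less RNA per precursor cannot be told apart. In the sentences below, levels are given in this order of treatments.

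Of the genes of the band 3 and skeleton complex, Slc4a1 stood at 180, 33.9, 763 and 191 CPM in maternal cells and at 344, 0, 5.38 and 37.2 CPM in recipient cells. Band 3 was thus detected in 7 of the 8 libraries, and its 4 maternal values lay from 33.9 to 763 while those of recipient cells overlapped them only through the uninjected and DC-depleted pIUT libraries. Sptb stood at 3.75, 0, 58.7 and 1.45 CPM in maternal cells and at 25.9, 0, 0 and 1.57 CPM in recipient cells. Beta-spectrin was lost from 3 libraries, and its maternal value in DC control pIUT stood alone above all others. Ank1 stood at 0.0257 (1 count), 0, 9.57 and 3.97 CPM in maternal cells and at 0.91, 0, 0 and 1.37 CPM in recipient cells. Ankyrin was the least abundant of the 8, with 735 counts in all libraries together, and was detectable in 4 of them. Epb42 stood at 27.2, 33.4, 120 and 17.9 CPM in maternal cells and at 60.7, 0, 0.133 and 7.92 CPM in recipient cells. Protein 4.2 was the gene of this complex that kept its maternal level in DC control mIUT.

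Of the Rh genes, Rhag, whose product carries ammonia and is needed to bring Rh proteins to the surface, stood at 166, 0, 279 and 527 CPM in maternal cells and at 163, 0, 0 and 33.4 CPM in recipient cells. Between the uninjected libraries the maternal to recipient ratio was 1.02 (0.986 to 1.05), an interval that includes 1. Rhd, the Rh protein gene of the mouse, stood at 251, 33.6, 599 and 1637 CPM in maternal cells and at 397, 0.732, 0.354 and 50.8 CPM in recipient cells. It was the only gene of the 8 with more than 3 counts in every library, though with 21 and 16 counts in the recipient DC control mIUT and pIUT libraries.

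Of the blood group genes, Kel stood at 13.8, 0.0258 (1 count), 91 and 34.3 CPM in maternal cells and at 77.8, 0, 0 and 5.78 CPM in recipient cells. Ermap stood at 19.2, 0, 119 and 135 CPM in maternal cells and at 52.9, 0.453, 0.332 and 26.3 CPM in recipient cells. Kel, a membrane endopeptidase, and Ermap, an immunoglobulin family protein, were thus both at 1 CPM or less in 3 libraries, maternal DC control mIUT and both recipient DC control IUT libraries. A count of 0 allows a level of up to 3 counts, which is 0.0775 CPM in the maternal DC control mIUT library, 0.105 in its recipient counterpart and 0.0664 in the recipient DC control pIUT library.

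**Figure D1:**
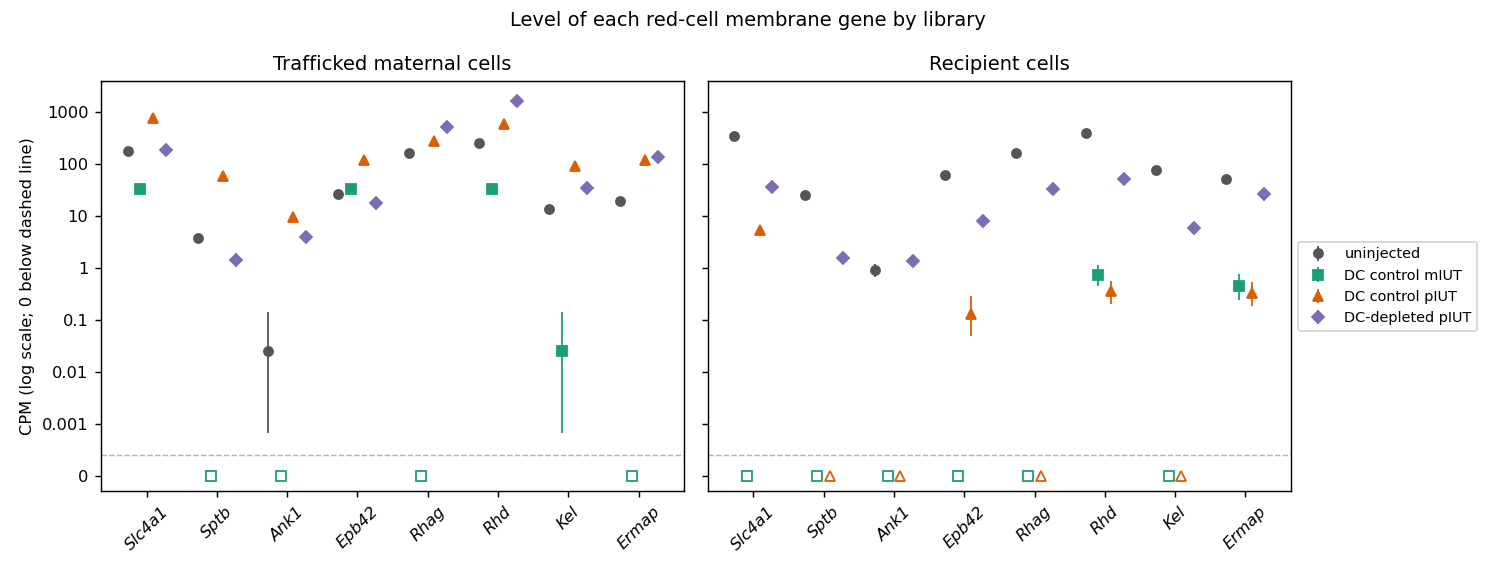
Level of each gene in CPM on a log axis, with trafficked maternal cells on the left and recipient cells on the right, symbols for the 4 treatments and bars for 95% counting intervals. Open symbols below the dashed line are libraries at 0 counts, and a reader should see that they belong to DC control mIUT in maternal cells and to DC control mIUT and pIUT in recipient cells.

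Between genes, levels were compared per kilobase of the canonical transcript, from 1520 bases in Rhd to 10409 in Sptb. On that scale Rhd led the 8 genes in 7 of the 8 libraries, with 165 CPM per kb in maternal uninjected and 261 in recipient uninjected cells. Slc4a1 led in recipient DC control pIUT cells alone, with 1.18 CPM per kb against 0.233 for Rhd. Rhag came after Rhd in maternal uninjected (70.9 CPM per kb), maternal DC-depleted pIUT (225) and recipient DC-depleted pIUT cells (14.3), whereas Slc4a1 came next in maternal DC control pIUT, at 168 against 119 for Rhag. The skeleton genes were lowest, with Sptb at 0.36 and Ank1 at 0.00411 CPM per kb in maternal uninjected cells. Reads can favour one end of a long transcript, so the order of genes of unlike length was not tested further.

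Shares within a library do not depend on scaling between libraries. In uninjected pups Rhd led in both origins, at 38% (Wilson interval 37.4 to 38.6) of the summed counts of the 8 genes in maternal and 35.4% (35 to 35.8) in recipient cells. Slc4a1 came second in both. Slc4a1 made up 27.3% and 30.7%, and Rhag 25.1% and 14.5%. Maternal DC control pIUT cells had Slc4a1 first at 37.4% (37.1 to 37.7), though per kilobase it was 21.5% and Rhd led at 50.6%, while in maternal DC-depleted pIUT cells it was 7.52% (7.34 to 7.7) and Rhd had the largest share, 64.2% (63.9 to 64.6). These differences exceed counting error. In maternal DC control mIUT cells 3 genes shared the counts, Slc4a1 with 1311 (33.6%), Rhd with 1301 (33.3%) and Epb42 with 1293 (33.1%), while Kel had 1 count and the other 4 genes 0. In recipient cells the DC-depleted pIUT library again held all 8 genes, with Rhd at 30.9% and Slc4a1 at 22.6%. The recipient DC control pIUT library held 280 counts, of which Slc4a1 was 86.8% (82.3 to 90.3), and the recipient DC control mIUT library held 34, of Rhd and Ermap alone.

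**Figure D2:**
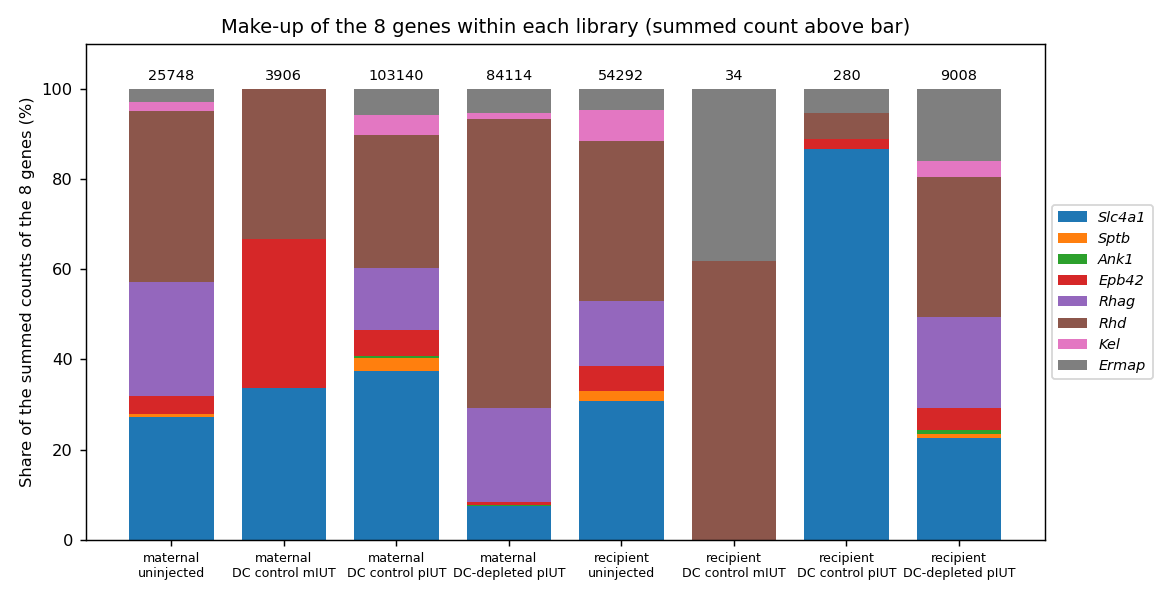
Share of each gene in the summed counts of the 8 genes (%), 1 bar per library with the summed count above it. Rhd is 64.2% of maternal DC-depleted pIUT, Slc4a1 is 86.8% of recipient DC control pIUT, and the bar of recipient DC control mIUT rests on 34 counts of Rhd and Ermap.

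Partner genes were also set against each other within a library. Counts of Rhd over Rhag stood at 1.51 (1.47 to 1.56), 2.15 (2.11 to 2.19) and 3.11 (3.05 to 3.16) across the maternal libraries other than DC control mIUT, and at 2.44 (2.38 to 2.51) and 1.52 (1.44 to 1.62) in recipient uninjected and DC-depleted pIUT cells. Rhd thus exceeded Rhag wherever both were detectable. Counts of Slc4a1 over Ank1 were 79.7 (72.9 to 87.4) in maternal DC control pIUT, 48.3 (40.6 to 57.8) in maternal DC-depleted pIUT, 378 (282 to 521) in recipient uninjected and 27.2 (21.6 to 34.7) in recipient DC-depleted pIUT cells. In maternal uninjected cells the ratio was 7022 (1260 to 277393), on 1 count of Ank1.

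The first comparison asked how IUT libraries stood against uninjected pups among trafficked maternal cells. In DC control mIUT, red-cell membrane genes were lower. Slc4a1 was 5.33-fold lower (5.02 to 5.66) and Rhd 7.48-fold lower (7.06 to 7.93), while Sptb, Rhag and Ermap, at 0 counts, were at least 48.4-fold, 2142-fold and 248-fold lower. Kel, at 1 count, was 533-fold lower with an interval of 95.3 to 21104. Epb42 did not follow them and was at 1.23 (1.13 to 1.33) times the uninjected level. Of 7 detectable genes 6 were thus called lower, beside 44% of all genes tested, and their median was -5.60 on the log2 scale against -0.60 over all genes, with libraries at 0 taken at their bound. In the same comparison granulocyte markers were called higher in 6 of 6 (322 to 74025 CPM in sum) and hepatocyte markers in 5 of 6 (41.7 to 4156 CPM), beside 26.4% of all genes. Called lower were B-cell markers in 5 of 5 (6621 to 307 CPM), megakaryocyte markers in 5 of 5 (101 to 0 CPM) and skeletal muscle markers in 5 of 5 (100 to 4.67 CPM). T-cell markers were called lower in 5 of 6 (1673 to 440 CPM).

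In maternal DC control pIUT cells the same genes stood higher than in uninjected pups. Sptb was 15.6-fold higher (13.3 to 18.6), Kel 6.61-fold (6.04 to 7.24), Ermap 6.2-fold (5.75 to 6.7), Epb42 4.4-fold (4.12 to 4.7), Slc4a1 4.23-fold (4.12 to 4.34) and Rhd 2.38-fold (2.33 to 2.44). Ank1 had 484 counts against 1, a ratio of 372 with an interval of 66.5 to 14737, and Rhag stood at 1.68 times its uninjected level (1.63 to 1.73). That is 7 of 8 called higher, beside 33.3% of all genes, with a median of 2.39 on the log2 scale against 0.00 over all genes. Past the yardstick of 4.99-fold were 4 of the 8, namely Sptb, Ank1, Kel and Ermap, and past 7.15-fold 2, Sptb and Ank1. In the same comparison B-cell markers were called lower in 5 of 5 (6621 to 49.7 CPM in sum) and T-cell markers in 6 of 6 (1673 to 107 CPM), beside 33.7% of all genes, and hepatocyte markers higher in 5 of 6 (41.7 to 151 CPM).

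In maternal DC-depleted pIUT cells the genes parted. Ermap was 7.01-fold higher (6.49 to 7.59) than in uninjected pups, Rhd 6.51-fold (6.37 to 6.65), Rhag 3.18-fold (3.09 to 3.27) and Kel 2.49-fold (2.25 to 2.77), and Ank1 had 131 counts against 1, a ratio of 154 (27.2 to 6144). Slc4a1 was at 1.06 (1.03 to 1.1) times the uninjected level, a ratio that turned below 1 with the library total alone or without the globin genes. Epb42 was 1.52-fold lower (1.37 to 1.68) and Sptb was 2.58-fold lower (1.85 to 3.65). The Rh and blood group genes and Ank1 thus stood on the higher side, and band 3, protein 4.2 and beta-spectrin did not. Over all protein-coding genes the median of this comparison ran from 0.80 on the log2 scale for transcripts of up to 2000 bases to -0.83 for those over 6000, and the part of length was not tested. Called higher were 5 of 8, beside 35.3% of all genes, and called lower 1, beside 34.7%. T-cell markers were called lower in 6 of 6 and B-cell markers in 5 of 5, and higher were 5 of 6 hepatocyte, 4 of 5 skeletal muscle and 5 of 6 granulocyte markers.

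Recipient cells of IUT groups had lower levels than those of uninjected pups, with Ank1 in DC-depleted pIUT as the exception. In DC control mIUT, Rhd was 543-fold lower (355 to 877) and Ermap 117-fold lower (68.2 to 220). The other 6 genes were at 0 counts, and were at least 3291-fold (Slc4a1), 1556-fold (Rhag), 743-fold (Kel), 580-fold (Epb42), 247-fold (Sptb) and 8.7-fold (Ank1) lower. All 8 genes were called lower, beside 24.6% of all genes. In DC control pIUT, Slc4a1 was 64-fold lower (56.4 to 72.9), Ermap 159-fold (96.5 to 285), Epb42 457-fold (210 to 1246) and Rhd 1122-fold (691 to 1963), while Rhag, Kel, Sptb and Ank1, at 0 counts, were at least 2450-fold, 1171-fold, 390-fold and 13.7-fold lower. Again all 8 were called lower, beside 20.2% of all genes. The medians were -9.13 and -8.72 on the log2 scale, and those over all genes 1.27 and 1.13. Hepatocyte markers were called lower in 6 of 6 in both comparisons (1206 CPM in uninjected cells to 26.6 and 1.46 CPM), skeletal muscle markers in 4 of 5 and B-cell markers in 4 of 4 detectable. Of 6 granulocyte markers, 3 were called higher in each, with 2 lower in mIUT and 3 in pIUT (9439 to 122451 and 25095 CPM in sum). T-cell markers were called higher in 5 of 6 in pIUT (453 to 3362 CPM), and in mIUT 1 was higher and 3 lower. Of all genes, 53.5% and 52.2% were called higher.

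Recipient DC-depleted pIUT cells held every gene at a lower level than uninjected pups except Ank1, at 1.5 times the uninjected level (1.02 to 2.23) on 75 and 44 counts. Sptb was 16.5-fold lower (13.3 to 20.8), Kel 13.4-fold (12 to 15.1), Slc4a1 9.26-fold (8.84 to 9.7), Rhd 7.82-fold (7.51 to 8.14), Epb42 7.67-fold (6.93 to 8.5) and Rhag 4.88-fold (4.63 to 5.13). Ermap was 2.01-fold lower, with an interval of 1.88 to 2.15 that includes the threshold, and did not reach 2-fold with the library total alone, without the globin genes or with TMM on the 2 libraries compared. The 7 genes called lower stand beside 18.2% of all genes, and 5 of the 8 passed 4.99-fold and also 7.15-fold. B-cell markers were called lower in 4 of 5 and higher in 1 (1202 to 238 CPM in sum). Of 6 megakaryocyte markers 2 were called lower and 4 higher (371 to 95.7 CPM). Of all genes 53.1% were called higher. The recipient uninjected library, which lacks genes that other libraries hold, had high levels of 7 of the 8 genes and 44 counts of Ank1. The 3 comparisons share this library, as those of maternal cells share the maternal uninjected one.

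**Figure D3:**
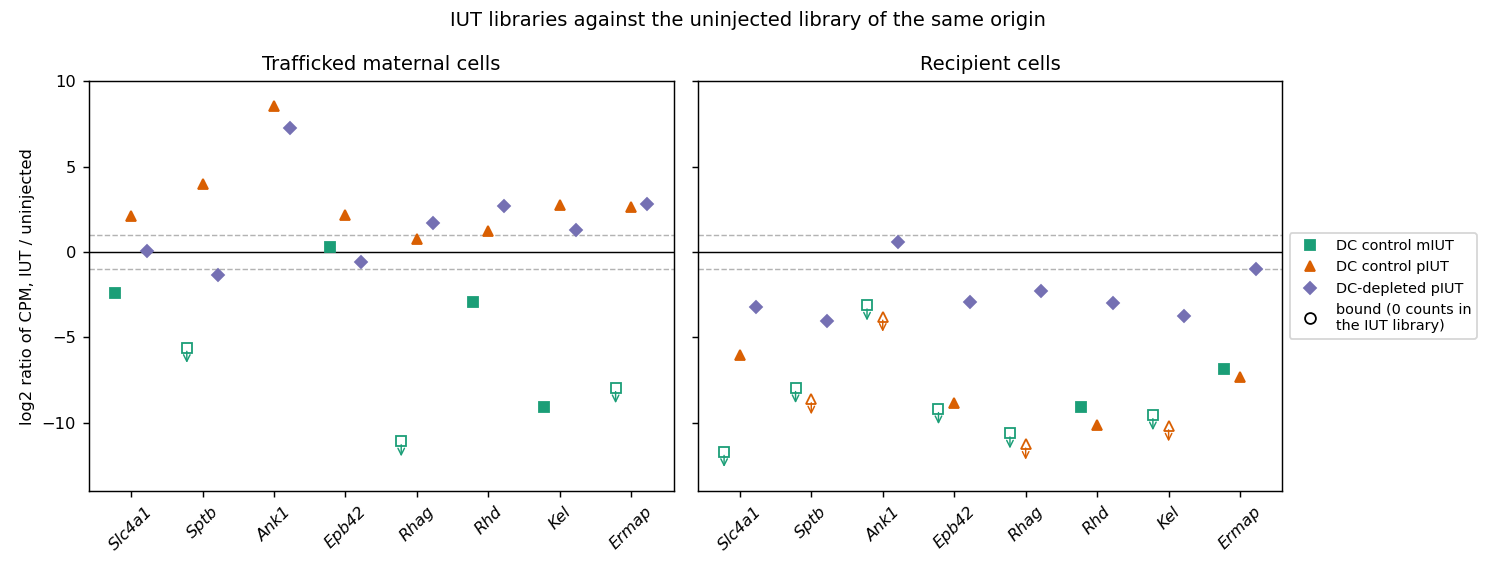
Ratio of CPM to the uninjected library of the same origin, on the log2 scale, for each gene and IUT group, in maternal cells on the left and recipient cells on the right, with open symbols and arrows for bounds from libraries at 0 counts, dashed lines at 2-fold and Ank1 left out of maternal DC control mIUT (3 counts or fewer in both). In recipient cells every symbol but that of Ank1 in DC-depleted pIUT lies below 0, and in maternal cells those of DC control pIUT all lie above 0.

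DC-depleted pIUT was next set against DC control pIUT, which asks what changed with DT given to the dam. In recipient cells all 8 genes were higher with DC depletion. Rhd was 143-fold higher (88.2 to 251), Ermap 79.3-fold (47.9 to 142), Epb42 59.6-fold (27.2 to 163) and Slc4a1 6.91-fold (6.05 to 7.93). Rhag, Kel, Sptb and Ank1, at 0 counts without depletion, were at least 502-fold, 87.1-fold, 23.6-fold and 20.6-fold higher. The count of 8 of 8 stands beside 24.1% of all genes called higher, and all 8 passed 4.99-fold and 7, all but Slc4a1, 7.15-fold. The median was 6.10 on the log2 scale against 0.12 over all genes. Markers of other cells moved in the same comparison. Hepatocyte markers were called higher in 6 of 6 (1.46 to 727 CPM in sum), skeletal muscle markers in 5 of 5 detectable (19.8 to 262 CPM) and megakaryocyte markers in 6 of 6 (17.2 to 95.7 CPM), while T-cell markers were called lower in 6 of 6 (3362 to 824 CPM), beside 14.8% of all genes. Of 5 detectable globins 1, Hba-x, was called higher, with a median of -0.60 on the log2 scale. The part of these cells in the levels of the membrane genes was not tested.

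In maternal cells the same comparison went the other way for most genes. Sptb was 40.4-fold lower (30.4 to 54.9) with DC depletion, Epb42 6.69-fold (6.15 to 7.29), Slc4a1 3.98-fold (3.88 to 4.09), Kel 2.65-fold (2.48 to 2.83) and Ank1 2.41-fold (1.98 to 2.95). Rhd was 2.73-fold higher (2.69 to 2.77), Rhag stood at 1.89 times its DC control level (1.85 to 1.93) and Ermap at 1.13 times (1.09 to 1.17), which was below 1 with the library total alone or without the globin genes. Called lower were 5 of 8, beside 36.4% of all genes, and called higher 1, beside 38.5%. The single call of a higher level, Rhd, was lost with the library total alone. Only Sptb and Epb42 passed 4.99-fold, and only Sptb 7.15-fold. Granulocyte markers were called higher in 5 of 6 (296 to 3119 CPM in sum), skeletal muscle markers in 4 of 6 and megakaryocyte markers in 4 of 5 detectable (18.9 to 33.4 CPM).

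Transcript length moved with this difference, in length classes chosen after values were seen. Over all protein-coding genes, the median log2 difference between the maternal DC-depleted and DC control pIUT libraries was 1.24 for transcripts of up to 2000 bases, -0.12 up to 4000, -1.04 up to 6000 and -1.81 beyond. Among the 8 genes the shortest transcripts, of Rhd (1520 bases) and Rhag (2339), had log2 values of 1.45 and 0.92, and the longest, of Sptb (10409), had -5.33. Ermap (4551 bases), at 0.18, stood above the median of its length class, and Epb42 (4115), at -2.74, and Slc4a1 (4545), at -1.99, below it. Ank1 (6257 bases), at -1.27, stood above its class median of -1.81, and Kel (2530), at -1.41, below its class median of -0.12. The maternal DC-depleted pIUT library showed the same order of length classes against maternal uninjected cells, from 0.80 to -0.83, and against recipient DC-depleted pIUT cells, from 0.46 to -1.79. The maternal DC control pIUT library ran the other way, from -0.42 in the shortest to 0.83 in the longest class against maternal uninjected cells. Over genes with 10 counts in both libraries the medians ran from 0.95 to -1.50 between DC-depleted and DC control pIUT, from 0.61 to -0.87 between DC-depleted pIUT and uninjected cells and from -0.34 to 0.54 between DC control pIUT and uninjected cells. The part of transcript length in these differences was not tested. In the recipient comparison of DC-depleted with DC control pIUT the medians of the length classes lay from 0.08 to 0.40.

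**Figure D4:**
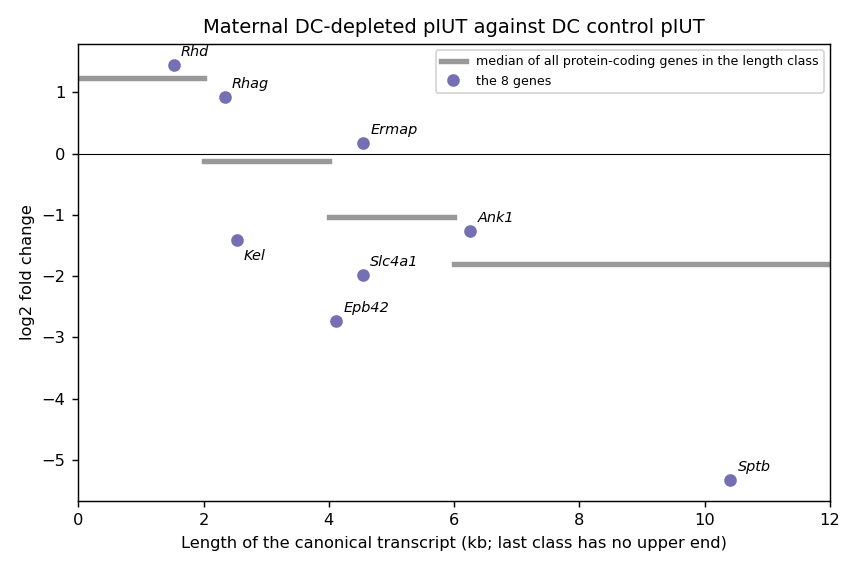
Log2 fold change between the maternal DC-depleted and DC control pIUT libraries against the length of the canonical transcript in kilobases, with points for the 8 genes and grey bars for the median of all protein-coding genes in each length class. The grey bars step down from 1.24 to -1.81, and the points run from Rhd at 1.45 to Sptb at -5.33.

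DC control pIUT against DC control mIUT compares donors of the paternal with donors of the maternal strain. In maternal cells all 8 genes were higher after pIUT, beside 43.5% of all genes. Slc4a1 was 22.5-fold higher (21.3 to 23.8), Rhd 17.8-fold (16.9 to 18.9) and Epb42 3.58-fold (3.37 to 3.81). Rhag, Ermap, Sptb and Ank1 were at least 3597-fold, 1539-fold, 758-fold and 123-fold higher, and Kel, at 4603 counts against 1, had a ratio of 3524 (632 to 139202). The genes at 0 in the maternal DC control mIUT library are read with its missing genes in view, and Epb42 had the smallest of these differences. Granulocyte markers were called lower in 6 of 6 (74025 to 296 CPM) and hepatocyte markers in 5 of 6, beside 29.1% of all genes, and skeletal muscle markers higher in 5 of 6. In recipient cells only 4 genes were detectable in either library. Slc4a1 was at least 51.4-fold higher after pIUT, the 1 gene called higher (32.6% of all genes were), and Rhd was 2.07-fold lower on 16 and 21 counts (1.03 to 4.24), the 1 gene called lower (28.3%), a call lost with the library total alone, a prior count of 2 or a fold of 4. Ermap, with 15 and 13 counts, had a ratio of 0.733 (0.325 to 1.67), a difference not detectable at this depth whose direction turned with the library total alone, and Epb42, with 6 counts against 0, was at least 1.27-fold higher.

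Maternal and recipient cells of 1 treatment were compared last. In uninjected pups the genes were lower in maternal cells or equal, with Kel 5.65-fold lower (5.16 to 6.19), Sptb 6.9-fold (5.81 to 8.25), Ermap 2.75-fold (2.54 to 2.99), Epb42 2.24-fold (2.08 to 2.4) and Ank1 at 1 count against 44 (35.4-fold, 6.03 to 1430). Slc4a1, 1.91-fold lower (1.86 to 1.96), and Rhd, 1.58-fold lower (1.54 to 1.62), did not reach 2-fold. The 5 genes called lower stand beside 23.9% of all genes. Granulocyte markers were also called lower in 6 of 6 (9439 in recipient to 322 CPM in maternal cells, in sum) and hepatocyte markers in 5 of 6 (1206 to 41.7 CPM). B-cell markers were called higher in 5 of 5 (1202 to 6621 CPM) and T-cell markers in 4 of 6, beside 47.8% of all genes. In DC control pIUT the order of the origins was turned round for the 8 genes. All 8 were higher in maternal cells, beside 26.3% of all genes, with Slc4a1 142-fold (125 to 161), Ermap 359-fold (218 to 642), Epb42 900-fold (413 to 2453) and Rhd 1692-fold (1042 to 2961) higher. Rhag, Kel, Sptb and Ank1 were at least 4196-fold, 1370-fold, 884-fold and 144-fold higher.

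In DC-depleted pIUT the gap between the origins was narrower. Rhd was 32.2-fold higher (31 to 33.5) in maternal cells and Rhag 15.8-fold (15 to 16.6), followed by Kel at 5.94-fold (5.24 to 6.75), Slc4a1 at 5.15-fold (4.9 to 5.42), Ermap at 5.12-fold (4.82 to 5.44), Ank1 at 2.9-fold (2.17 to 3.9) and Epb42 at 2.26-fold (1.99 to 2.56). Sptb did not differ beyond counting error, at a ratio of 0.927 (0.637 to 1.33). The 7 genes called higher stand beside 22.6% of all genes. B-cell markers were called lower in 5 of 5 (238 to 30.3 CPM in sum) and granulocyte markers in 5 of 6 (16385 to 3119 CPM), beside 40.9% of all genes. Skeletal muscle markers were called higher in 3 of 5 detectable. In DC control mIUT 4 genes were detectable. Slc4a1, Epb42 and Rhd were higher in maternal cells, beside 20.5% of all genes, at least 324-fold, at least 319-fold and 45.9-fold (29.9 to 74.4). Ermap was at least 5.85-fold lower, beside 45.5%, with 0 counts against 13. Hepatocyte markers were called higher in 5 of 6 (26.6 to 4156 CPM in sum) and lower in 1. Over the 14 comparisons, 103 pairs of levels had more than 3 counts in at least 1 of their libraries, and of these, bounds against 0 counts included, 72 passed 4.99-fold and 59 passed 7.15-fold.

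The genes were set against globin and Alas2, the enzyme that starts haem synthesis in erythroid cells, to compare membrane genes with other red-cell products of the same library. These ratios were chosen after values were seen. Globin genes took 9.17%, 1.81%, 16.4% and 15.4% of the counts of the 4 maternal libraries and 12.4%, 0.0144%, 4.51% and 3.41% of those of recipient cells. Per 1000 globin counts there were 7.28 (7.2 to 7.37), 4.85 (4.7 to 5.01), 16 (15.9 to 16.1) and 14.2 (14.1 to 14.3) counts of the 8 genes in maternal cells. In recipient cells there were 9.12 (9.04 to 9.2) in uninjected, 5.67 (3.92 to 7.92) in DC control mIUT, 0.155 (0.138 to 0.175) in DC control pIUT and 6.39 (6.26 to 6.52) in DC-depleted pIUT. The recipient DC control pIUT library thus stood apart, with 1803422 globin counts beside 280 of the membrane genes, whereas the other 7 lay between 4.85 and 16. Per 1000 Alas2 counts the 8 genes had 12.9 counts in that library, and from 542 to 4145 in the other 7. The recipient DC control mIUT value rests on 15 counts of Alas2.

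**Figure D5:**
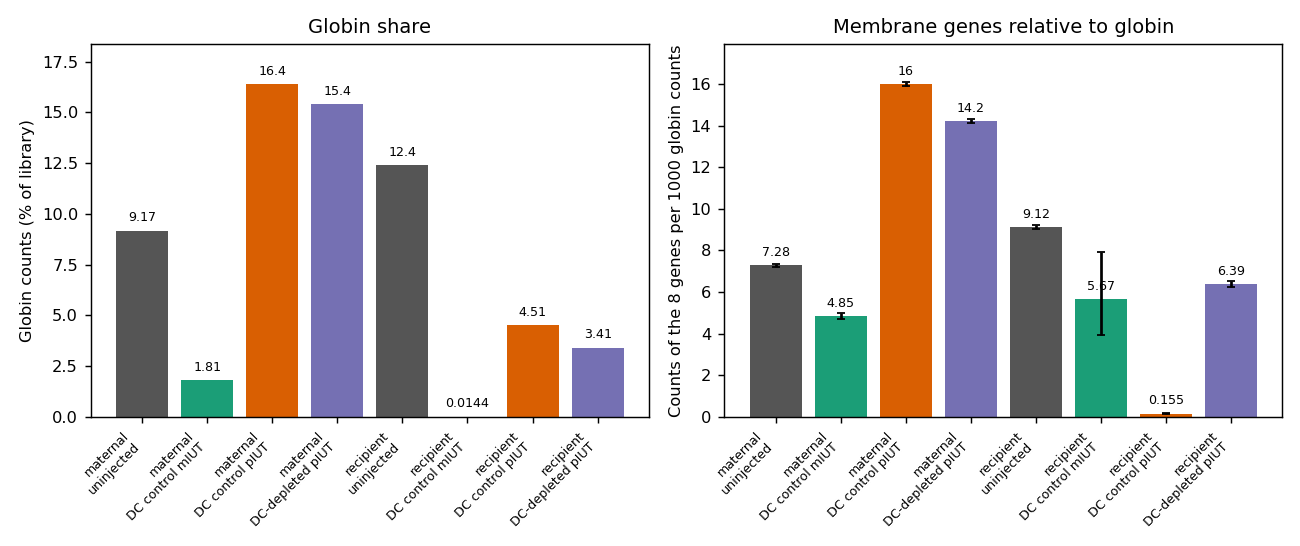
Globin counts as a percentage of each library on the left, and counts of the 8 membrane genes per 1000 globin counts on the right with 95% counting intervals, 1 bar per library. Recipient DC control pIUT has 4.51% globin and 0.155 membrane counts per 1000 globin counts, while the other 7 libraries lie between 4.85 and 16.

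The 20 other genes of the red-cell membrane and skeleton moved less evenly. In recipient cells, 11 of 19 detectable genes were called lower in DC control mIUT than in uninjected pups, beside 24.6% of all genes, and 4 were called higher, beside 53.5%, with a median of -1.71 on the log2 scale. The counts were also 11 of 19 lower (20.2% of all genes) and 4 higher (52.2%) in DC control pIUT, with a median of -1.41. The 4 that went against the rest in both comparisons were Epb41 (protein 4.1), Xk, Slc29a1 and Abcb6, which were at 0.103, 0.165, 0 and 0.103 CPM in the recipient uninjected library. In maternal cells, 11 of 20 were called lower in DC control mIUT (44% of all genes) and 1 (26.4%), Mpp1, higher at 2.17-fold (2.11 to 2.24), with a median of -3.89 on the log2 scale. In DC control pIUT 11 of 20 were called higher (33.3% of all genes) and 1 (33.7%), the channel gene Piezo1 at 0 counts, at least 235-fold lower, with a median of 1.08. With DC depletion, 11 of 20 were called higher (24.1% of all genes) and 0 lower (14.8%) in recipient cells relative to DC control pIUT, with a median of 1.38 on the log2 scale. In maternal cells 6 of 20 were called lower, a smaller share than the 36.4% of all genes, and 3 higher, also under the 38.5% of all genes. These were Icam4 at 2.34-fold (2.25 to 2.43), Slc29a1 at 2.71-fold (2.65 to 2.76) and Piezo1 at least 59.7-fold, with a median of 0.34. Cd47, Bsg and Add1, which many cell types use, had the highest levels of the list, and Cd47 lay between 368 and 772 CPM in all 8 libraries. The summed level of the list lay between 1281 and 4667 CPM.

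The 13 paralogs that serve in other cells summed to between 13.7 and 699 CPM. Tgm2, Sptbn1 and Slc4a2 led them, and Sptbn1, a spectrin of other tissues, was at 344 CPM in recipient uninjected cells and at 3.29, 0.181, 28.4 and 0.394 CPM in the maternal libraries. The 8 erythroid transcription factors summed to between 304 and 1610 CPM, led by Nfe2, Klf1 and Gata1. Klf1, the erythroid Kruppel-like factor, had 120, 0, 335 and 552 CPM in maternal and 296, 0.732, 0.221 and 41.4 CPM in recipient cells, whereas Gata1 was at 0.93 CPM in the recipient uninjected library and at 7.17 and 36.7 CPM in the recipient pIUT libraries. Of the 8 late erythroid genes, led by Alas2, Bnip3l and Bpgm, the sum lay between 633 and 2367 CPM. Bnip3l, used when mitochondria are cleared, was at 798 CPM in recipient DC control mIUT cells, where Alas2 was at 0.523 CPM.

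Markers of other cells were measured beside these results. Granulocyte markers, led by Ngp, Ltf and Camp, were highest in both DC control mIUT libraries and were at 25095 and 16385 CPM in the recipient DC control and DC-depleted pIUT libraries, against 296 CPM in maternal DC control pIUT. Hepatocyte markers (Apoa1, Ahsg and Ttr first) lay between 1.46 CPM in recipient DC control pIUT and 4156 CPM in maternal DC control mIUT, and skeletal muscle markers (Acta1, Mylpf and Tnni2 first) between 4.67 CPM in maternal DC control mIUT and 694 CPM in maternal DC-depleted pIUT. Markers of erythroid progenitors (Tfrc, Myb and Epor first) lay between 102 and 547 CPM, and those of megakaryocytes (Pf4 and Itga2b first) between 0 and 371 CPM. T-cell markers were led by Lck, Cd3d and Cd3g and B-cell markers by Cd79a, Cd79b and Ms4a1, with 5 of the 6 B-cell genes in the table. Globins were led by Hbb-bs, Hba-a1 and Hba-a2, at a summed level from 209 to 179275 CPM. Slc4a1 is also used in kidney intercalated cells, and their markers Foxi1 and Atp6v1b1, as well as Umod and Slc12a1 of other kidney cells, were at 0 in all 8 libraries. Of the kidney list Atp6v0d2, which osteoclasts also express, reached 76.5 CPM in maternal DC control pIUT and Aqp2 reached 0.365 CPM. The part of these other cell types in the levels of the 8 genes was not tested.

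Genes of the whole table were ranked by likeness to the 8, as Pearson's r over the 8 libraries between log2(CPM + 1) of a gene and the mean of the 8 genes. The points share libraries and the ranking is a description. Of 12045 genes at 10 CPM or more in some library, 54 had r of 0.9 or more, 5 of the 8 genes among them. Ank1, at most at 9.57 CPM, was not ranked. Each of the others is part of the mean it was ranked against, so its r is high in part by construction. Among the first 10 after the genes themselves were Car2 (carbonic anhydrase of the red cell, 0.969), Cracd (0.962), Plek2 (0.956), Klf1 (0.953), A730089K16Rik (0.951), Cldn13 (0.95), Aqp1 (the red-cell water channel, 0.949), Fam210b (0.949) and Icam4 (0.949). Car2 was at 711, 83.8, 2222 and 2701 CPM in maternal cells and at 1602, 4.57, 34.5 and 237 CPM in recipient cells. Only 3 of the first 10 stayed in the first 10 with a pseudocount of 0.1, and 3 with Spearman's rho. Among the 8 genes themselves r lay between 0.566 and 0.975 over 28 pairs.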

How the data were processed

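Cells of pooled pups gave 8 RNA libraries, 1 for each origin and treatment. The authors deposited estimated counts per gene, not normalized, from an nf-core run of salmon with the GRCm39 genome and GENCODE annotation (M26), while the methods name featureCounts for this step. The submitters' processing notes also list StringTie and bcl2fastq. The clonotype tables of the same libraries were not used. Each of the 8 columns of the gene table matched a sample (0 unmatched).

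After rounding these to integers, 25066 of 52784 genes had a count. TMM factors over the 8 libraries (0.6894 to 1.324) and log2 fold changes came from edgeR 4.0.16 in R 4.3.3, the latter by its exact test at a dispersion of 0.4 with a prior count of 0.125 and without p values. Ratios printed as fold are plain ratios of CPM with exact conditional binomial intervals, CPM have exact Poisson intervals, and a library at 0 counts is taken at 3 counts for a bound. Positions, lengths and starts were read from GENCODE vM39 on GRCm39, which matched 97.99% of the gene identifiers. The fold calculation was tested on simulated data. Alternatives were DESeq2 1.42.0 size factors, scaling by library total, leaving out the globin genes, a prior count of 2, a filter of 10 counts in both libraries, a fold of 4, counts not rounded, shares per kilobase, a pseudocount of 0.1 and Spearman's rho, and, chosen after seeing the data, TMM on only the 2 libraries compared and a negative binomial range for the assumed spread. Tables were handled with pandas 2.3.3 and numpy 2.4.6 in Python 3.11.15, intervals with scipy 1.17.1 and plots with matplotlib 3.10.9.

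Named genes comprise the 8, the 3 with the highest summed CPM in each other list, those of a list that went against most of it in a comparison described, and the 10 most like the 8, and a few genes under this rule are not reported here. Sptbn1, Cd47, Add1 and others named from these lists are given with values for description only. The 8 genes and all lists were chosen with earlier results of these data known.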

Additional observations from a re-analysis of the deposited data

Results flagged for a closer look

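The log2 fold change against uninjected pups ran in opposite directions, by at least 2-fold in each, in maternal and recipient cells for 7 of the 8 genes in DC control pIUT and for 4 in DC-depleted pIUT. Of all genes, 33.3% were called higher in maternal and 20.2% lower in recipient DC control pIUT cells against uninjected pups. In DC-depleted pIUT these shares were 35.3% and 18.2%. The share of all genes that did both was not counted, so these counts of genes have no background beside them. Each direction rests on 1 library against another, and the difference between the origins was not tested. In DC control pIUT the maternal and recipient values were 2.08 and -6.00 for Slc4a1, 3.97 and -13.24 for Sptb, 8.39 and -8.42 for Ank1, and 2.14 and -8.81 for Epb42. They were 1.25 and -10.12 for Rhd, 2.72 and -14.83 for Kel, and 2.63 and -7.30 for Ermap. In DC-depleted pIUT they were 1.67 and -2.29 for Rhag, 2.70 and -2.97 for Rhd, 1.32 and -3.75 for Kel, and 2.81 and -1.01 for Ermap, whose recipient value did not reach 2-fold with the library total alone, without the globin genes or with TMM on the 2 libraries compared. With a maternal difference under 2-fold, Rhag in DC control pIUT (0.75 and, against 0 counts, -15.89) and Slc4a1 in DC-depleted pIUT (0.09 and -3.21) also lay on opposite sides of 0, the latter not with the library total alone or without the globin genes. The recipient values of Sptb, Ank1 and Kel in DC control pIUT are against 0 counts and depend on the prior count, as does the maternal value of Ank1, which rests on 1 count in the uninjected library.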

How the results depend on the processing

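No difference of 2-fold or more reversed under the alternatives that were run. Of the smaller ones, 5 changed sign: Slc4a1 in maternal DC-depleted pIUT against uninjected pups and Ermap against DC control pIUT (library total alone, without globin), Ermap in recipient DC control pIUT over mIUT (library total alone), and, with DESeq2 size factors, Rhag between the uninjected libraries and Sptb between those of DC-depleted pIUT. DESeq2 size factors, leaving out the globin genes and TMM on the 2 libraries compared (chosen after seeing the data) moved none of the 28 counts of called genes by over 1.5 times. The median of all genes shifted by up to 0.30, 0.36 and 0.10 on the log2 scale under these, and by up to 0.70 with the library total alone. With the library total alone, the genes called higher in maternal DC-depleted over DC control pIUT were 0, and in recipient DC control pIUT over mIUT 2 were called higher and 0 lower. With a prior count of 2, 0 were called lower in that recipient comparison. With 10 counts required in both libraries, genes at 0 drop out by construction: 2 remained called lower in maternal DC control mIUT and 2 in recipient DC control mIUT against uninjected pups, and 3 in recipient DC control pIUT. With this filter 3 were called higher in maternal DC control pIUT over mIUT, 3 in recipient DC-depleted over DC control pIUT, 3 in maternal over recipient DC control pIUT, 0 in recipient DC control pIUT over mIUT, and 1 higher and 0 lower in maternal over recipient DC control mIUT. With a fold of 4, 3 were called higher and 0 lower in maternal DC-depleted pIUT against uninjected pups, 0 higher and 2 lower against DC control pIUT, 0 lower in recipient DC control pIUT over mIUT, and 3 lower in maternal over recipient uninjected cells. With the range of a negative binomial in place of the log-normal approximation (added after seeing the data), the genes past it against uninjected pups were 2 (maternal DC control pIUT) and 1 (maternal DC-depleted pIUT), and otherwise 1 in maternal DC-depleted over DC control pIUT, 1 between the uninjected libraries and 2 between those of DC-depleted pIUT. Each comparison sets 1 library against 1 other, with no replicate numbers to pair. A fit of origin across the 4 treatments, with treatment as a block, was not run. Genes at 3 counts or fewer, at least 4 of the 8 in the maternal DC control mIUT and both recipient DC control IUT libraries, give bounds at 0 counts and ratios with wide intervals at 1 count. Shares taken per kilobase moved 45 of 64 values.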
